A study of Homo sapiens with 8 samples.

Results

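The genes described here encode the proteins of the cytosolic ribosome. They were chosen by symbol: RPL or RPS followed by a digit, or RPLP1 and RPLP2, without the RPS6K kinases and without pseudogene symbols. In all, 63 of 19775 genes measured by a probe set listed with exactly 1 gene symbol met this rule, namely 32 genes of the large subunit, 20 of the small subunit, 9 paralogs (RPL3L, RPL7L1, RPL10L, RPL22L1, RPL26L1, RPL36AL, RPL39L, RPS4Y1 and RPS27L) and 2 noncoding genes whose symbols share the letters (RPL34-DT and RPL26L1-AS1). Each gene was followed in its brightest such probe set, judged by the mean of all 8 arrays. A further 15 ribosomal protein genes, RPL4, RPL5, RPL7A, RPL10 and RPS26 among them, lie only on probe sets listed with several symbols and were not followed. RPLP0 and RPSA were not analysed here.

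The arrays were made from Kasumi-1, an established line of human acute myeloid leukemia cells with the AML-ETO fusion. In the study's account it lacks endogenous NR4A proteins. The cells were electroporated with in vitro transcribed mRNA, and total RNA was taken after 6 h for Affymetrix human U133 Plus arrays. The control group received GFP mRNA (n = 3), a second group received the mRNA of wild type NR4A1, a nuclear receptor that represses growth of leukemia cells (NR4A1 WT, n = 3), and the last group received the mRNA of NR4A1 with a mutated DNA-binding domain (NR4A1 CEAA, n = 2). All groups thus share 1 cell line, the electroporation and a foreign mRNA; whether the replicates came from separate cultures is not stated, and the spread behind each p-value may be technical. The comparisons ask which transcripts respond to NR4A1 and whether the mutated domain matters for them.

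The 3 probe sets listed for NR4A1 itself read between 5.06 and 6.66 on the log2 scale in all 8 arrays, with overlapping groups. Since the introduced mRNA held the coding sequence and where these probe sets lie was not known here, this checks nothing about the labels. Of the 7 myeloid blast markers measured, MPO (14.34 to 14.43), KIT (13.45 to 13.78) and RUNX1T1, part of the AML-ETO fusion (11.07 to 11.61), were high. CD34 read 7.44 to 7.88, SPI1 5.72 to 6.89, ANPEP 5.85 to 6.25 and CD38 4.92 to 5.64. The last 3 reached into the range of the 6 T cell and 3 erythroid markers measured, 3.52 to 6.56. Over the myeloid markers, the summed linear intensity was 36389 to 37140 in GFP arrays, 34488 to 35971 in NR4A1 WT arrays and 39002 to 39401 in NR4A1 CEAA arrays. Over the 5 B cell markers it was 245 to 264, 256 to 291 and 206 to 228 in the same order, and CD79B moved with the groups. The part of these marker shifts in the results below was not tested.

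A ribosome joins a small subunit, which reads the mRNA, to a large subunit, which forms the peptide bond, and nearly every one of its proteins is present in a single copy. Cells therefore make ribosomal proteins in step, and in growing leukemia cells their mRNAs are among the most abundant. Most of these mRNAs start with a C followed by a run of pyrimidines, the 5′ terminal oligopyrimidine or TOP motif, through which mTORC1 and LARP1 control their translation. Free ribosomal proteins also act as a signal: RPL5 and RPL11, bound to 5S rRNA, restrain MDM2 and so stabilize p53.

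Because the TOP motif groups these genes by sequence, the first bases of the genes that the results turn on are shown. Of the 63 genes, 55 had an entry in the RefSeq promoter table (GRCh38.p14), which spans 250 bases before to 50 bases after each annotated start. A start with C and at least 4 further pyrimidines was found in 36 of the 55 (65.5%), against 5.14% of all 27305 genes in the table. Among genes of the 2 subunits it was found in 34 of 46 (73.9%), and among paralogs in 2 of 7 (28.6%). The windows below run from 15 bases before the annotated start to 15 bases after it, 5′ to 3′ along the gene, with the pyrimidine run from the first transcribed base in capitals. RPS14, RPLP1 and RPS9 stand for the subunit genes, and the others are 4 of the 5 paralogs that differed between groups.
RPS14, chr5:150449725-150449754, minus strand: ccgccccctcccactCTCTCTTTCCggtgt
RPLP1, chr15:69452803-69452832, plus strand: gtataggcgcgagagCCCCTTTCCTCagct
RPS9, chr19:54200843-54200872, plus strand: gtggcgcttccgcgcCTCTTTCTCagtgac
RPL22L1, chr3:170870181-170870210, minus strand: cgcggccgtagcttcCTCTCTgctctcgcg
RPL7L1, chr6:42879601-42879630, plus strand: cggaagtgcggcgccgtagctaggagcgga
RPS27L, chr15:63157463-63157492, minus strand: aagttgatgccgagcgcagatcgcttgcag
RPL26L1, chr5:172958714-172958743, plus strand: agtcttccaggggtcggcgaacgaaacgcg
The first 4 have a TOP start, and RPL7L1, RPS27L and RPL26L1 have none at these annotated starts.

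More motifs were searched on both strands of the full promoter windows of the same 55 genes, which have 63 entries, and none of these strings lies within another. The NR4A monomer site AAAGGTCA was present in 2 of 55 genes (3.64%) against 1.49% of all genes, and both are RPL34 and its divergent neighbour RPL34-DT, whose windows share the bases. The ETS factor core CCGGAAG was present in 21 of 55 (38.2%) against 12.2%. The E-box CACGTG was present in 4 of 55 (7.27%) against 8.77%, and TATAAA in 5 of 55 (9.09%) against 14%. A match describes letters, not a bound site. The windows below show the NR4A string, which in RPL34 reads on the opposite strand, and the ETS string just before the starts of both paralogs with the largest differences, in capitals.
RPL34, chr4:108620529-108620568, plus strand: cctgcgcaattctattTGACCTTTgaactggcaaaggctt
RPS27L, chr15:63157478-63157517, minus strand: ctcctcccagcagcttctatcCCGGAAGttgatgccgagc
RPL7L1, chr6:42879576-42879615, plus strand: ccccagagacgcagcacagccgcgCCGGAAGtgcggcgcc
RPL34, a large subunit gene, read 14.02, 13.99 and 14.02 in GFP arrays, 14.06, 14.04 and 14.03 in NR4A1 WT arrays, and 14.03 and 14.01 in NR4A1 CEAA arrays, and it did not pass the test in any comparison.

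The deposited values are log2 intensities from robust multi-array averaging (RMA), and they were nearly the same from array to array for these genes. Of the 63 genes, 44 had a mean log2 intensity above 14, out of 63 genes that bright on the whole array, and 5 more lay between 13 and 14 (RPL18, RPL35, RPL35A, RPL36 and RPS9). Highest was RPL41, the shortest ribosomal protein, at 14.92 to 14.97, which is also the range of the arrays' highest values. Levels of different probe sets cannot be ranked as RNA amounts. The probe sets of RPL22L1, RPL26L1, RPL36AL, RPL7L1 and RPS27L lay between 8 and 13, and 9 genes lay under 8. RPL27A, RPL36A and RPLP2 were among those 9 because their brightest probe sets, at 14.57, 14.25 and 14.54, are listed with several symbols.

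Agreement between replicates was close. The median SD within groups was 0.019 over the 63 genes and 0.017 over the 44 brightest, against 0.025 over the 19 other genes above 14 and 0.10 over all genes. In all 8 arrays RPLP1, the stalk protein that draws elongation factors to the ribosome, stayed between 14.68 and 14.70. RPS19, the gene most often mutated in Diamond-Blackfan anemia, stayed between 14.65 and 14.70. RPS14, lost in myelodysplastic syndrome with a deletion of the long arm of chromosome 5, stayed between 14.57 and 14.64. These brightest probe sets sit within 1 log2 unit of the top of the scale, and whether they could register a rise was not tested. The quantile normalization within RMA forces all arrays onto 1 distribution, which makes the top of the scale alike in every array. A rise or fall shared by the 44 brightest genes could thus be hidden, and part of the close agreement may come from this step.

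In the brightest probe sets, core ribosomal protein genes read close to their GFP levels in NR4A1 WT arrays, and the 3 genes called were paralogs. This describes probe sets near the top of the scale: with probe sets without a suffix preferred, which are often dimmer, 0 of the 63 genes were higher and 6 lower (17.4% of all genes were called), among them the core genes RPL7, RPL37, RPL37A and RPS15A. In limma's moderated test over all 19775 genes (Benjamini-Hochberg adjusted p below 0.05), 1 of the 63 genes was higher and 2 were lower than in GFP arrays, or 4.76%, against 20.3% of all genes called in this comparison. None of the 32 large subunit genes and none of the 20 small subunit genes was called, and 0 of them had an unadjusted p below 0.05. The median log2 fold change was 0.01 in each subunit, and the 44 genes above 14 ran from -0.03 to 0.04, with no 95% confidence bound beyond 0.16. Since the normalization holds the top of the scale alike, such values do not exclude a fall or rise shared by these genes in any comparison. The median over the 63 genes was 0.01, beside 0.00 over all genes. Among other genes of like signal, 0 of 19 above 14 and 6 of 93 between 13 and 14 (6.45%) were called. Between 8 and 13, where all 3 called paralogs lie, 38.4% of 5868 other genes were called.

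RPS27L, the p53-inducible paralog of the small subunit protein RPS27, rose. It read 11.28, 11.28 and 11.36 in GFP arrays and 11.60, 11.61 and 11.57 in NR4A1 WT arrays. Every NR4A1 WT array was above every GFP array, a log2 fold change of 0.29 ± 0.05 (SE; 1.22-fold, limma adjusted p = 0.0035). RPL7L1, a paralog of RPL7, fell. It read 12.53, 12.54 and 12.52 in GFP arrays and 12.20, 12.17 and 12.21 in NR4A1 WT arrays. The groups were well apart, and the log2 fold change was -0.34 ± 0.04 (1.26-fold lower, adjusted p = 0.00109). RPL22L1, the paralog of RPL22, fell as well. It read 10.87, 10.84 and 10.79 in GFP arrays and 10.56, 10.60 and 10.53 in NR4A1 WT arrays, a log2 fold change of -0.27 ± 0.05 (1.21-fold lower, adjusted p = 0.00592). The 2 groups again did not overlap. All 3 calls were kept in each limma fit on these probe sets, every array left out in turn included, with a highest adjusted p of 0.0298.

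None of the parent genes of these paralogs was called in the followed probe set. RPS27 ranged from 14.47 to 14.51 over the 8 arrays, RPL22 from 14.06 to 14.12 and RPL7 from 14.58 to 14.63, with log2 fold changes of -0.01, 0.00 and -0.01. A dim probe set of RPL7, 239493_at, was lower in NR4A1 WT than in GFP (log2 fold change -0.61, limma adjusted p = 0.0316). The followed probe sets of the parents lie far higher on the scale than their paralogs, so a bright, steady probe set is set here beside a dimmer one that changed. The Rank Product test named in the study's methods called none of the 63 genes at a q below 0.05, with a lowest q of 0.398, where it called 4.35% of all genes.

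**Figure D1:**
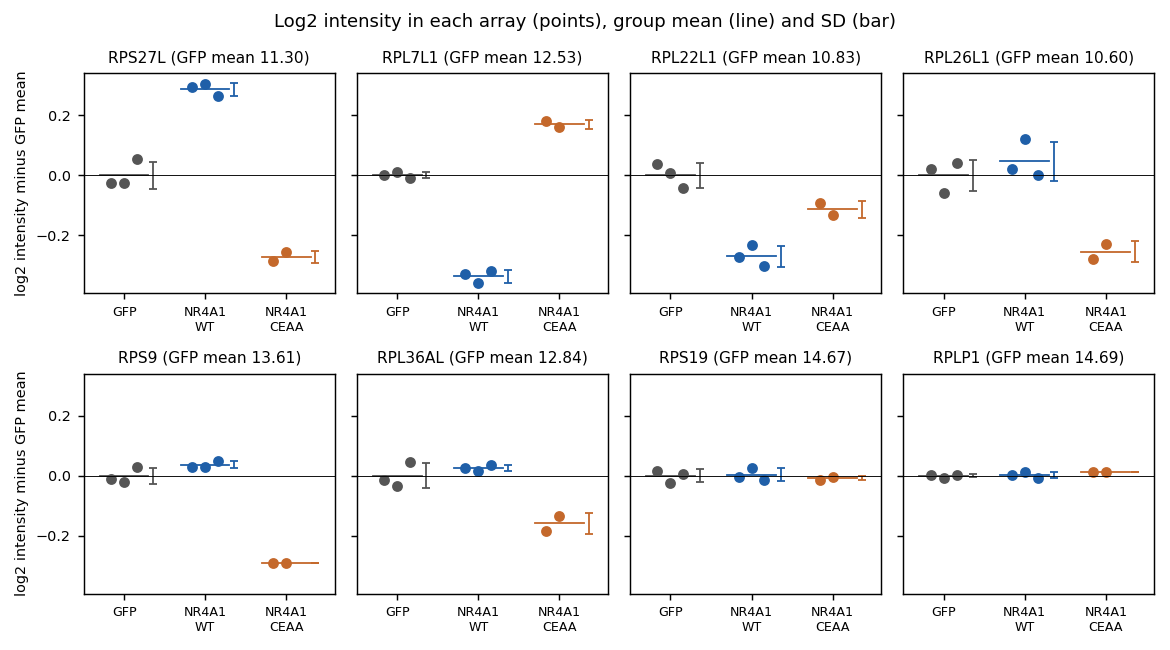
Each panel plots 1 gene, with the log2 intensity of each array minus the mean of the GFP arrays on the y axis and the 3 groups on the x axis; points are arrays, lines are group means and bars are SDs (n = 3, 3 and 2). RPS27L lies above GFP in NR4A1 WT and below it in NR4A1 CEAA, RPL7L1 does the reverse, RPL26L1, RPS9 and RPL36AL lie lower in NR4A1 CEAA alone, of which RPL36AL passed the test only against NR4A1 WT, and RPS19 and RPLP1 stay within a few hundredths of the GFP mean.

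In NR4A1 CEAA arrays, 3 genes fell and 1 rose in the followed probe sets, while several dimmer probe sets of core genes fell further (log2 fold changes of -1.76 for RPL37A and -0.96 for RPS10, described with the other probe sets). The 4 called are 6.35% of the 63 genes, against 19.2% of all genes in this comparison. The median log2 fold change was 0.00, beside -0.03 over all genes. The 44 genes above 14 ran from -0.14 to 0.12, with a largest confidence bound of 0.26, and 44 of the 63 were within 0.1 of the GFP mean, compared with 59 of 63 for NR4A1 WT; the difference between these counts was not tested. The 4 genes called were RPS9, RPS27L, RPL26L1 and RPL7L1.

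RPS9, a protein of the small subunit, was the only core gene called against GFP in its followed probe set. It read 13.60, 13.59 and 13.64 in GFP arrays and 13.32 in both NR4A1 CEAA arrays, a log2 fold change of -0.29 ± 0.05 (1.23-fold lower, limma adjusted p = 0.00625). NR4A1 WT arrays, at 13.64, 13.64 and 13.66, lay with the controls. RPS27L read 11.02 and 11.05 in NR4A1 CEAA arrays, below all GFP arrays, a log2 fold change of -0.27 ± 0.05 (1.21-fold lower, adjusted p = 0.0111). RPL26L1, the paralog of the large subunit protein RPL26, read 10.62, 10.54 and 10.64 in GFP arrays, 10.62, 10.72 and 10.60 in NR4A1 WT arrays, and 10.32 and 10.37 in NR4A1 CEAA arrays. Its fall against GFP was -0.26 ± 0.06 on the log2 scale (1.20-fold, adjusted p = 0.0236), and it did not pass the test with the replicate number as a block (adjusted p = 0.074). RPL7L1 rose, with 12.71 and 12.69 in NR4A1 CEAA arrays and a log2 fold change of 0.17 ± 0.05 (1.13-fold, adjusted p = 0.0473). For RPS27L and RPL7L1, NR4A1 WT and NR4A1 CEAA thus lay on opposite sides of the controls.

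With 2 NR4A1 CEAA arrays these calls were fragile. RPS27L, RPL26L1 and RPL7L1 lost their calls whichever NR4A1 CEAA array was left out, and RPS9 lost its call without NR4A1 CEAA replicate 1. Such fits keep 1 NR4A1 CEAA array, and far fewer of all genes were called in them as well. The losses are therefore not particular to the ribosomal protein genes. With both NR4A1 CEAA arrays kept, the limma adjusted p of RPL7L1 was above 0.05 whichever other array was left out. It ran from 0.0504 without NR4A1 WT replicate 2 to 0.124 without GFP replicate 3. That of RPL26L1 was above 0.05 without GFP replicate 1 (0.0695) or GFP replicate 3 (0.0769). Without those 2 GFP arrays in turn, 13.1% and 11.9% of all genes were called, against 19.2% with all arrays.

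Smaller shifts lay under the threshold. In this comparison 12 of the 63 genes had an unadjusted limma p below 0.05, a smaller share than the 6444 of all 19775 genes. RPL11, which carries the 5S rRNA with RPL5, read 14.14, 14.14 and 14.15 in GFP arrays, 14.15, 14.14 and 14.09 in NR4A1 WT arrays, and 14.01 in both NR4A1 CEAA arrays, a log2 difference of -0.13 ± 0.05 (limma adjusted p = 0.112). RPL3, which lies by the peptidyl transferase center, read 14.12, 14.14 and 14.14 in GFP arrays and 14.01 and 14 in NR4A1 CEAA arrays, a difference of -0.13 ± 0.05 (adjusted p = 0.115). The NR4A1 CEAA arrays were below every GFP array for both genes. Limma's standard errors of about 0.05 for these genes draw on the spread of all genes. With the spread fitted to signal, 13 of the 63 genes were called, 2 higher and 11 lower, where 25.6% of all genes were, and RPL3, RPL8, RPL11, RPL18, RPL36, RPS3, RPS15 and RPL36AL joined the lower ones with changes of -0.08 to -0.15, while RPL24 joined the higher ones at 0.12. Rank Product called none of the 63 (lowest q 0.497), against 1.83% of all genes.

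**Figure D2:**
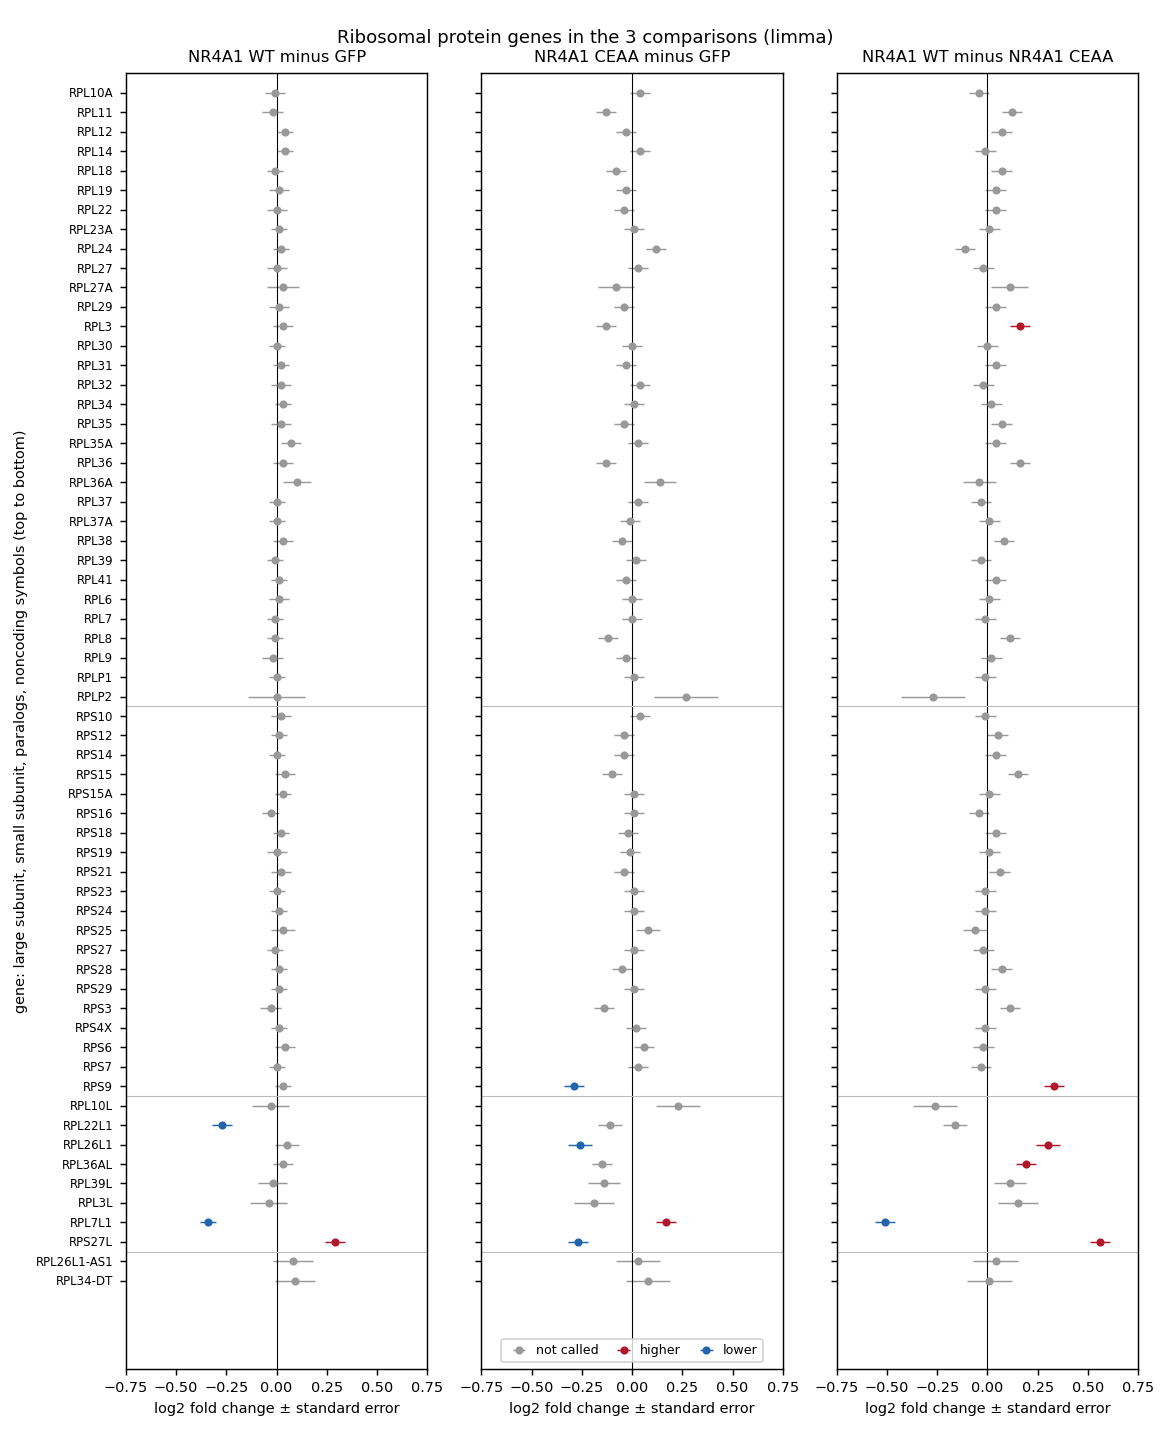
Log2 fold change (x axis, bars are limma standard errors) of 62 of the 63 genes (y axis, grouped as large subunit, small subunit, paralogs and noncoding symbols) in the 3 comparisons; RPS4Y1 is not drawn. Subunit genes crowd around 0 in all 3 panels, with RPS9 and RPL3 the only ones called, and the other genes called are paralogs.

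Between both forms of the receptor, 5 of the 63 genes were higher and 1 was lower in NR4A1 WT than in NR4A1 CEAA, or 9.52%, against 31.5% of all genes. These arrays are those of the preceding comparisons, so the same values return here. RPS27L differed most, by 0.56 ± 0.05 on the log2 scale (1.48-fold higher in NR4A1 WT, limma adjusted p = 0.000155). RPL7L1 differed by -0.51 ± 0.05 (1.42-fold lower, adjusted p = 0.000173). RPS9 was 0.33 ± 0.05 higher in NR4A1 WT (1.25-fold, adjusted p = 0.00153) and RPL26L1 0.30 ± 0.06 higher (1.24-fold, adjusted p = 0.00647). In each of these 4 genes no array of one group reached into the other.

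RPL36AL and RPL3 lay closer to the threshold. RPL36AL, a paralog of RPL36A, read 12.83, 12.81 and 12.89 in GFP arrays, 12.87, 12.86 and 12.88 in NR4A1 WT arrays, and 12.66 and 12.71 in NR4A1 CEAA arrays. It was 0.19 ± 0.05 higher in NR4A1 WT than in NR4A1 CEAA on the log2 scale (1.14-fold, limma adjusted p = 0.0291). RPL3 read 14.13, 14.20 and 14.17 in NR4A1 WT arrays and was 0.16 ± 0.05 higher than in NR4A1 CEAA (1.12-fold, adjusted p = 0.0447). RPL22L1 stood between GFP and NR4A1 WT in NR4A1 CEAA arrays, at 10.74 and 10.70, and differed from NR4A1 WT by -0.16 ± 0.06 (adjusted p = 0.0651) and from GFP by -0.11 ± 0.06 (adjusted p = 0.208). The call of RPL36AL ended without GFP replicate 1, NR4A1 WT replicate 1 or 3, or either NR4A1 CEAA array (adjusted p up to 0.157), and that of RPL3 without any array but NR4A1 WT replicate 1 (up to 0.165). That of RPL26L1 ended without NR4A1 CEAA replicate 1 (0.0564). The count of 5 higher was 2 without NR4A1 CEAA replicate 1 and 3 without NR4A1 CEAA replicate 2, NR4A1 WT replicate 3 or GFP replicate 1, and the count of 1 lower was 2 without NR4A1 WT replicate 3. Scaling the arrays on other genes of like signal turned 5 higher and 1 lower into 4 higher and 3 lower (31% of all genes called). Rank Product called none of the 63 (lowest q 0.223), against 2.78% of all genes, and the signal-fitted spread called 14 higher and 3 lower, against 34.7% of all genes. With that spread 2 were higher and 2 lower in NR4A1 WT against GFP, against 25.1%.

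By role, few core genes were called, and most of their followed probe sets lie above 14. Of the 19 other genes that bright, 0 were called in either comparison with GFP and 2 between NR4A1 WT and NR4A1 CEAA. The counts below therefore cannot tell the roles apart. In the followed probe sets, the 2 stalk genes, RPL11 of the 5S particle, 6 genes of the exit tunnel, 5 of the decoding and tRNA sites and 3 at the mRNA entry and exit of the small subunit had no member called in any comparison. Of 4 genes of the peptidyl transferase and tRNA sites of the large subunit, only RPL3 was called, between NR4A1 WT and NR4A1 CEAA. None of the 16 Diamond-Blackfan anemia genes measured was called by limma in its followed probe set in any comparison. In those probe sets 2 had an unadjusted p below 0.05, against GFP with NR4A1 CEAA, and the median log2 fold changes lay between 0.00 and 0.02. Dimmer probe sets of RPL18, RPS10, RPS15A, RPS19 and RPS24 were called. That of RPS19, 242451_x_at, was lower in NR4A1 CEAA than in GFP (log2 fold change -0.37 ± 0.09, limma adjusted p = 0.0288). RPLP2, the partner of RPLP1 in the stalk, was followed by a dim probe set that read 5.70, 6.17 and 5.93 in GFP arrays, 5.94, 6.09 and 5.77 in NR4A1 WT arrays, and 6.38 and 6.02 in NR4A1 CEAA arrays. Its groups overlapped, and its difference between NR4A1 CEAA and GFP was 0.27 ± 0.16 (limma adjusted p = 0.305).

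Of the 9 paralogs, 5 were called in at least 1 comparison, as were 2 of the 52 subunit genes, RPS9 and RPL3. All 5 paralogs called have a signal between 8 and 13, where 72.6% of other genes were called in at least 1 comparison, against 39.6% of all genes. Those not called were RPL3L, the form of RPL3 used in muscle, RPL10L and RPL39L, known from the testis, and RPS4Y1. RPL10L read 6.68 to 7.16 over the 8 arrays, and was 0.23 ± 0.11 above GFP in NR4A1 CEAA on the log2 scale (limma adjusted p = 0.175). RPL39L read 7.76 to 8.04 and RPL3L 3.92 to 4.36, with NR4A1 CEAA minus GFP differences of -0.14 (adjusted p = 0.278) and -0.19 (adjusted p = 0.221). RPL3L lay below the median of each array, which ran from 4.755 to 4.802, and its small differences are those of a dim probe set. Neither noncoding gene passed the test in any comparison, and 0 of their unadjusted p-values were below 0.05.

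**Figure D3:**
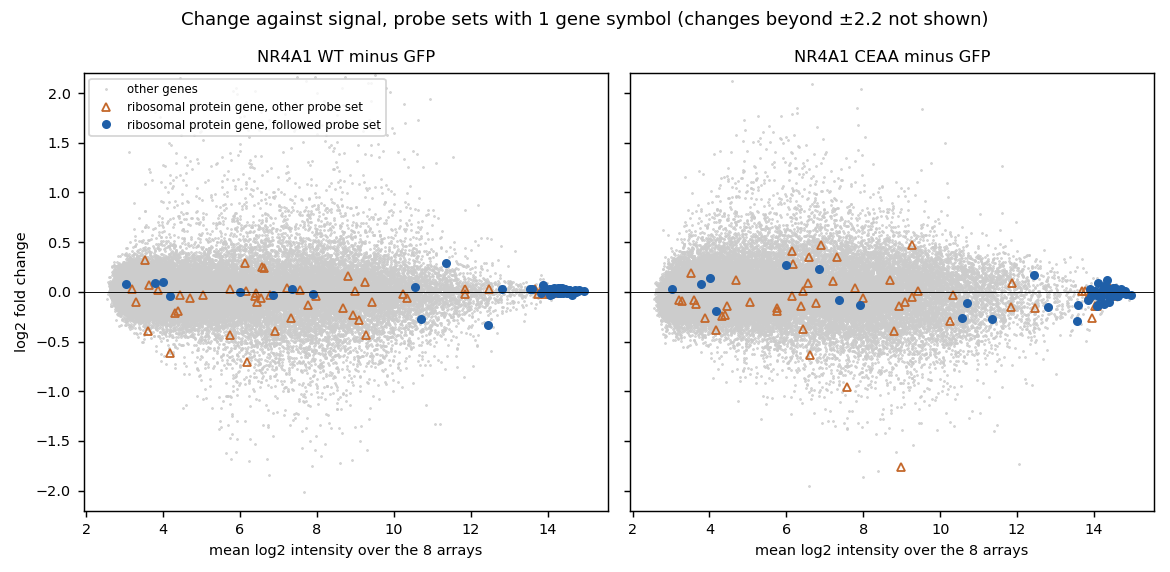
Log2 fold change (y axis) against the mean log2 intensity over the 8 arrays (x axis) for all probe sets with 1 symbol, for NR4A1 WT and NR4A1 CEAA against GFP; filled circles are the followed probe sets of the ribosomal protein genes, open triangles their other probe sets and grey dots other genes. Followed probe sets above 14 lie within 0.14 of 0 on both sides, and the open triangles spread down to -0.71 and -1.76.

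Other probe sets of the same genes moved further. The 63 genes had 124 probe sets in all, and 34 genes had more than 1. In a fit over all 41091 probe sets with 1 symbol, 5 of the 61 probe sets not followed were lower in NR4A1 WT than in GFP and 0 were higher (8.20%, against 13.6% of all probe sets; 14 had an unadjusted p below 0.05). For NR4A1 CEAA against GFP, 3 were higher and 6 lower (14.8%, against 15.8%), and between NR4A1 WT and NR4A1 CEAA 8 were higher and 5 lower (21.3%, against 26.4%). Of the 18 with a mean above 13, these comparisons called 0, 1 and 1. Both calls were of 200823_x_at, a probe set of the core gene RPL29 with a mean of 13.94. It was lower in NR4A1 CEAA than in GFP (log2 fold change -0.26 ± 0.06, limma adjusted p = 0.0235). In NR4A1 WT it was 0.24 ± 0.06 higher than in NR4A1 CEAA (adjusted p = 0.0212). Which exon, intron or strand the other probe sets match was not known here. This count over other probe sets was added after the data had been seen, and it rests on single arrays. The 5 lower in NR4A1 WT were 1 without GFP replicate 1 or 2, 2 without NR4A1 WT replicate 3 and 3 without GFP replicate 3. The 6 lower in NR4A1 CEAA were 3 without GFP replicate 1 or 2, and the 3 higher were 0 without GFP replicate 1, GFP replicate 3 or NR4A1 CEAA replicate 2 and 1 without NR4A1 CEAA replicate 1. Between NR4A1 WT and NR4A1 CEAA, the 8 higher were 4 without either NR4A1 CEAA array or NR4A1 WT replicate 2 and 5 without NR4A1 WT replicate 3 or any GFP array, and the 5 lower were 3 without NR4A1 CEAA replicate 1.

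RPL37A showed the widest split. Its followed probe set stayed between 14.73 and 14.75 in all 8 arrays. Probe set 213459_at read 6.48, 6.34 and 6.28 in GFP arrays, 5.76, 5.45 and 5.76 in NR4A1 WT arrays, and 6.61 and 6.69 in NR4A1 CEAA arrays, a log2 fold change of -0.71 ± 0.10 for NR4A1 WT against GFP (limma adjusted p = 0.00166). The NR4A1 WT arrays were the low ones. Probe set 214041_x_at read 9.40, 9.55 and 9.33 in GFP arrays, 9.28, 9.62 and 9.42 in NR4A1 WT arrays, and 7.65 and 7.69 in NR4A1 CEAA arrays, a log2 fold change of -1.76 ± 0.11 for NR4A1 CEAA against GFP (adjusted p = 0.000128). Here the NR4A1 CEAA arrays were low, and the NR4A1 WT and GFP arrays overlapped.

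RPS10, a small subunit protein and Diamond-Blackfan anemia gene, gave the same kind of split. Its followed probe set stayed between 14.48 and 14.53, and 2 others near 14.5 were level too. Probe set 214001_x_at read 7.76, 7.91 and 7.73 in GFP arrays, 7.80, 7.84 and 7.83 in NR4A1 WT arrays, and 6.82 and 6.87 in NR4A1 CEAA arrays (log2 fold change against GFP -0.96 ± 0.07, limma adjusted p = 0.000302). The suffix x marks probe sets whose probes can match other transcripts, so the source of the signal in both RPL37A and RPS10 was not settled.

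Of the 43 other probe sets at 13 or under, 7 were higher and 5 lower in NR4A1 WT than in NR4A1 CEAA. Among the 7, RPS21 probe set 214097_at was 0.26 ± 0.08 higher (limma adjusted p = 0.0358) and RPL38 probe set 221943_x_at 0.56 ± 0.13 higher (adjusted p = 0.0132). That of RPS21 was also lower in NR4A1 CEAA than in GFP (log2 fold change -0.29 ± 0.08, adjusted p = 0.0376). Several other dim probe sets, of genes with a level followed probe set, were lowest in NR4A1 WT and highest in NR4A1 CEAA. RPS24, a Diamond-Blackfan anemia gene, ranged from 14.73 to 14.77 in its followed probe set. Its probe set 1555878_at read 9.36, 9.42 and 9.17 in GFP arrays, 9.21, 8.82 and 8.61 in NR4A1 WT arrays, and 9.93 and 9.64 in NR4A1 CEAA arrays. NR4A1 WT and NR4A1 CEAA differed by -0.91 ± 0.17 on the log2 scale (limma adjusted p = 0.00431), while neither differed from GFP past the threshold (adjusted p = 0.102 and 0.1). RPS23, which lies at the decoding center, read 7.30, 7.44 and 7.24, then 7.16, 7.09 and 6.93, then 7.57 and 7.79 in probe set 227722_at, in the same order of groups. It differed by -0.62 ± 0.10 between NR4A1 WT and NR4A1 CEAA (adjusted p = 0.00235). RPL37, a large subunit protein, had probe set 224766_at at 6.80, 7.13 and 6.88 in GFP arrays, 6.72, 6.59 and 6.32 in NR4A1 WT arrays, and 7.34 and 7.47 in NR4A1 CEAA arrays, a difference of -0.86 ± 0.14 (adjusted p = 0.00182). In all 3 genes the NR4A1 CEAA arrays were above every NR4A1 WT array. RPS15A had its probe sets 229882_at and 235309_at lower in NR4A1 WT than in GFP by 0.43 and 0.24 (log2 fold changes -0.43 and -0.24, adjusted p = 0.0181 and 0.0456), while its followed probe set ranged from 14.43 to 14.49.

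For 2 of the called genes the other probe sets bear on the call itself. RPS9 had probe set 214317_x_at at 12.50, 12.51 and 12.50 in GFP arrays and 12.33 and 12.34 in NR4A1 CEAA arrays, lower as in the followed probe set by -0.17 ± 0.06 on the log2 scale (limma adjusted p = 0.1), and 0.20 ± 0.06 lower than in NR4A1 WT (adjusted p = 0.0379). RPS27L had 1 probe set that moved with the followed one: 222487_s_at read 6.72, 6.68 and 6.66 in GFP arrays, 7.04, 6.87 and 6.87 in NR4A1 WT arrays, and 6.00 and 6.10 in NR4A1 CEAA arrays (NR4A1 CEAA minus GFP -0.64 ± 0.08, adjusted p = 0.0016). The remaining one, 238935_at, went the other way in NR4A1 CEAA, with 6.30, 6.45 and 6.45 in GFP arrays against 6.64 and 6.86 (0.35 ± 0.09, adjusted p = 0.0256). Its NR4A1 WT arrays, at 6.68, 6.63 and 6.63, were above GFP like those of the followed probe set, although that difference did not pass the test (0.25 ± 0.08, adjusted p = 0.0692). For RPS27L the 3 probe sets thus shared the sign of the NR4A1 WT difference and split over NR4A1 CEAA.

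**Figure D4:**
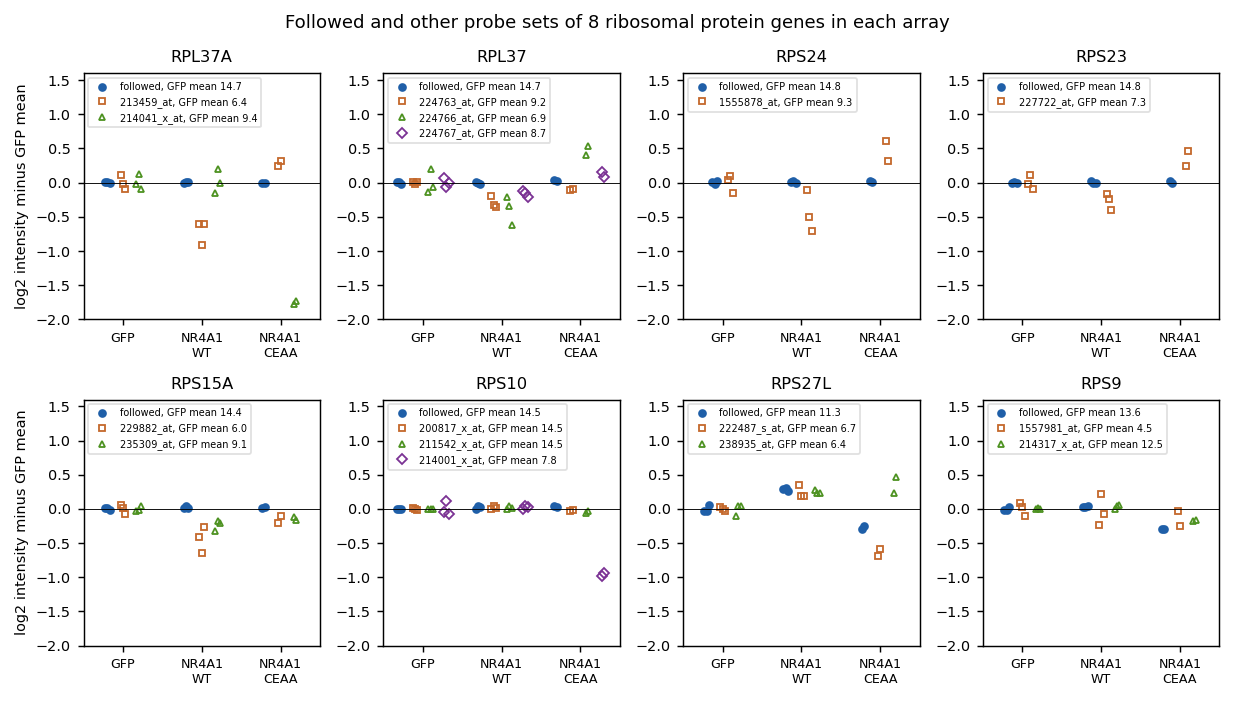
Log2 intensity minus the GFP mean (y axis) in each array (points) by group (x axis) for the followed probe set (filled) and the other probe sets (open) of 8 ribosomal protein genes, with each probe set's GFP mean in the legend. The followed probe sets of RPL37A, RPL37, RPS24, RPS23, RPS15A and RPS10 stay at 0 while dimmer probe sets of the same genes reach as far as -1.76.

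Genes around the ribosomal proteins were read from lists chosen with earlier results of these data known. Of 15 chaperones and importins that escort ribosomal proteins to the nucleus and into the particle, 9 fell and 0 rose with NR4A1 WT (median log2 fold change -0.21, beside 0.00 over all genes). That is 60% of the list, against 20.3% of all genes and 38.4% of other genes with a signal of 8 to 13, the range of these chaperones. PDCD2L, a binding partner of RPS2, fell by 0.64 on the log2 scale (limma adjusted p = 0.000427), HEATR3, the RPL5 importer, by 0.40 (adjusted p = 0.000962), and PDCD2 by 0.35 (adjusted p = 0.00195). With NR4A1 CEAA 7 fell and 1 rose (53.3%, against 19.2% of all genes and 39.5% at that signal; median -0.13, beside -0.03). TSR2, the escort of RPS26, fell by 0.59 (adjusted p = 0.00194), RPS19BP1, a binding partner of RPS19, fell by 0.39 (adjusted p = 0.0054), and the importin TNPO1 rose by 0.30 (adjusted p = 0.0139). Between NR4A1 WT and NR4A1 CEAA, 3 of the 15 were higher and 5 lower (53.3%, against 31.5% of all genes and 59.6% at that signal). PDCD2L was 0.65 lower in NR4A1 WT than in NR4A1 CEAA (log2 fold change -0.65, limma adjusted p = 0.000492), and TSR2 was 0.74 higher (adjusted p = 0.000175). Others read alike with both proteins. In GFP, NR4A1 WT and NR4A1 CEAA arrays, mean log2 intensities were 8.4, 8.1 and 8.08 for IPO4 and 8.52, 8.25 and 8.25 for GRWD1.

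Few other TOP mRNAs were called with NR4A1 WT. Of 21 TOP translation factors measured, 0 rose and 1 fell (EIF3A, log2 fold change -0.29, limma adjusted p = 0.0181), or 4.76% against 20.3% of all genes, and of 3 snoRNA host transcripts none was called. With NR4A1 CEAA 1 factor rose and 5 fell (28.6%, against 19.2% of all genes). Of other genes at a signal of 8 to 13 and 13 to 14, where most factors lie, 39.5% and 22.6% were called. With NR4A1 WT these shares were 38.4% and 6.45%. Among the factors that fell with NR4A1 CEAA were the initiation factor subunits EIF3G (-0.58, adjusted p = 0.00155) and EIF3I (-0.29, adjusted p = 0.0152). The snoRNA hosts ZFAS1 (-0.33, adjusted p = 0.00668) and EPB41L4A-AS1 (-0.37, adjusted p = 0.00438) fell too. FAU, the small subunit protein that the symbol rule does not reach, was 0.02 above GFP in NR4A1 WT and 0.15 below it in NR4A1 CEAA (log2 fold changes 0.02 and -0.15), and the 2 differed by 0.17 (adjusted p = 0.0436).

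Of 16 genes of mTORC1 and TOP control, 1 rose and 4 fell with NR4A1 WT (31.2%, against 20.3% of all genes). Most of the list has a signal of 8 to 13, where 38.4% of other genes were called. The falls were led by DDIT4, an mTORC1 inhibitor (log2 fold change -0.57, limma adjusted p = 0.00147), the translation repressor EIF4EBP1 (-0.46, adjusted p = 0.000385) and the mTORC1 subunit RPTOR (-0.41, adjusted p = 0.00128). With NR4A1 CEAA 2 rose and 6 fell (50%, against 19.2% of all genes and 39.5% at that signal). Among those that fell were the mTORC1 inhibitor TSC2 (-0.64, adjusted p = 0.014) and the mTORC1 subunits MLST8 (-0.58, adjusted p = 0.00236) and AKT1S1 (-0.57, adjusted p = 0.000864). Members of the list that activate and that restrain mTORC1 were thus both among those that fell. The largest rise of the list with NR4A1 CEAA, 0.47 on the log2 scale, was that of DEPTOR (mean 10.63 in GFP and 11.1 in NR4A1 CEAA arrays). EIF4EBP1 read alike with both proteins, with means of 10.92, 10.46 and 10.48 in GFP, NR4A1 WT and NR4A1 CEAA arrays. Of 7 genes of the MDM2 and p53 ribosome checkpoint, 3 rose with NR4A1 WT (42.9%, against 20.3% of all genes), namely the p53 targets ZMAT3 (0.49, limma adjusted p = 0.022) and MDM2 (0.38, adjusted p = 0.000758) and the p53 inhibitor MDM4 (0.23, adjusted p = 0.021). CDKN1A (-0.23, adjusted p = 0.23), PHLDA3 (0.14, adjusted p = 0.626), SESN1 (0.16, adjusted p = 0.265) and CDKN2A were not called. MDM2 and MDM4 have a signal of 8 to 13, where 38.4% of other genes were called. The rest lie under 8, where 12.7% were. With NR4A1 CEAA 2 of the 7 were called (28.6%, against 19.2%): ZMAT3 rose (0.83, adjusted p = 0.00522) and CDKN2A, the ARF and p16 locus, fell (-0.35, adjusted p = 0.0153).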

How the data were processed

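Gene expression was measured in 8 arrays of Kasumi-1 cells taken 6 h after electroporation. The authors deposited log2 intensities made with RMA Express (version not given in the sources used here), which subtracts background, forces all arrays onto 1 distribution by quantile normalization and summarizes the probes of each probe set. A change shared by most RNAs would therefore not show, and a change shared by most of the brightest probe sets could be hidden. Fewer transcripts in all cells or in some of them cannot be told apart. The table held 54613 probe sets, of which 41091 had 1 gene symbol, 1801 several and 11721 none. The 63 genes were matched to RefSeq by gene identifier.

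The members and the lists were chosen with earlier results of these data known. The brightest single-symbol probe set of each of 19775 genes entered limma (version 3.58.1, R 4.3.3; lmFit and eBayes, all 8 arrays in 1 fit, 3.04 prior degrees of freedom), with Benjamini-Hochberg adjustment over all genes and calls at 0.05. This replaced as main test the Rank Product of the methods, which was run with 100 permutations as an alternative, because limma gives standard errors and 1 estimate of spread for 3 groups. No low values were removed in the main test. Confidence intervals are at 95%. The number of arrays limits the precision. Named with values were the 8 largest calls in each direction per comparison, the stalk, 5S and paralog genes, RPS19 and RPS14, genes whose other probe sets moved the other way, and up to 3 called genes of each list. RPL34, RPS27, RPL22, RPL7, RPL41 and the genes described for their dim probe sets or added by the signal-fitted spread were named after their values were seen. The scripts were tested on simulated data. Alternatives were other tests, filters, scalings and probe sets, and each array left out. No level is given for the Y-linked RPS4Y1.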

Additional observations from a re-analysis of the deposited data

How the results depend on the processing

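Among the 63 genes, the calls for NR4A1 WT against GFP were 1 higher and 2 lower in every fit that left out 1 array, and the median stayed at 0.006 to 0.015 (0.011 with all arrays). For NR4A1 CEAA against GFP these fits gave 0 higher, 0 to 3 lower and a median of -0.007 to 0.001, against 1 higher, 3 lower and a median of 0.000 with all arrays. For NR4A1 WT against NR4A1 CEAA they gave 2 to 4 higher, 1 to 2 lower and a median of 0.010 to 0.025, against 5, 1 and 0.015. Over the 61 other probe sets they gave, in the same order of comparisons, 0 to 1, 0 to 4 and 4 to 8 higher, and 1 to 6, 3 to 7 and 3 to 6 lower.

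The following gives the counts of higher and lower genes under each other setting where they moved by over 1.5 times, with the other direction where it changed at all. With the spread fitted to signal there were 2 higher in NR4A1 WT against GFP, 2 higher and 11 lower in NR4A1 CEAA against GFP, and 14 higher and 3 lower between NR4A1 WT and NR4A1 CEAA. Rank Product gave 0 in each. Array weights gave 2 higher and 4 lower in NR4A1 CEAA. Only the 2 groups compared gave 0 higher in NR4A1 CEAA and 3 higher in NR4A1 WT against NR4A1 CEAA. Without dim genes there were 3 higher and 8 lower in NR4A1 CEAA (37% of all genes called) and 7 higher and 3 lower in NR4A1 WT against NR4A1 CEAA. At an adjusted p below 0.01 there were 0 higher and 1 lower in NR4A1 CEAA and 3 higher in NR4A1 WT against NR4A1 CEAA. With all probe sets adjusted together there were 0 higher in NR4A1 CEAA and 3 higher in NR4A1 WT against NR4A1 CEAA. Centring on array medians gave 0 higher in NR4A1 CEAA, 6 higher in NR4A1 WT against NR4A1 CEAA, and medians of 0.017, -0.020 and 0.042 for the 3 comparisons. A second quantile normalization gave 3 higher and 2 lower in NR4A1 WT against NR4A1 CEAA, and medians of 0.011 for NR4A1 CEAA against GFP and 0.003 for NR4A1 WT against NR4A1 CEAA. Scaling on 33 other genes of like signal gave 4 higher and 3 lower in NR4A1 WT against NR4A1 CEAA, and medians of 0.002, 0.013 and -0.006, the last with its sign turned. Probe sets without a suffix gave 0 higher and 6 lower in NR4A1 WT against GFP, 2 lower in NR4A1 CEAA against GFP, 3 higher and 3 lower in NR4A1 WT against NR4A1 CEAA, and medians of 0.003 and -0.019 against GFP. With those probe sets RPS27L turned: NR4A1 CEAA minus GFP was 0.35 (limma adjusted p = 0.0233) and NR4A1 WT minus NR4A1 CEAA -0.10 (adjusted p = 0.407). The share of all genes called moved too, from 19.2% for NR4A1 CEAA against GFP and 31.5% for NR4A1 WT against NR4A1 CEAA. In the first it was 24.9% with array weights, 21.4% with only the 2 groups and 16.1% with probe sets without a suffix. In the second it was 50.7% without dim genes, 26.3% with only the 2 groups and 28% with probe sets without a suffix. The cause of these moves was not tested.

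Replicate numbers did not pair the arrays, since residuals of the 7 same-numbered pairs correlated at -0.04 to 0.09. With the replicate number as a block, 0 genes were higher, 2 lower (RPL26L1 was lost, limma adjusted p = 0.074) and the median was -0.010 in NR4A1 CEAA against GFP, and 3 were higher and 2 lower in NR4A1 WT against NR4A1 CEAA. Of all genes, 12.5% and 27.1% were called in these comparisons with the block, against 19.2% and 31.5% without it. Of the other probe sets, the block gave 1 higher in NR4A1 WT against GFP, 0 higher in NR4A1 CEAA against GFP and 4 higher in NR4A1 WT against NR4A1 CEAA.

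For the other probe sets, the higher count in NR4A1 WT against GFP (0) was 1 with the signal-fitted spread, 2 after a second quantile normalization and 2 without dim probe sets, and the lower count (5) was 10 with the signal-fitted spread and 1 at 0.01. In NR4A1 CEAA against GFP the higher count (3) was 5 with the signal-fitted spread, 5 with array weights, 1 after centring and 0 at 0.01, and the lower count (6) was 11 with the signal-fitted spread, 11 without dim probe sets and 3 at 0.01. In NR4A1 WT against NR4A1 CEAA the higher count (8) was 4 with only the 2 groups, 5 when scaled on genes of like signal and 3 at 0.01.

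Of 865 values of single genes under all alternatives, 785 kept their side of the threshold, 65 lost it and 13 gained it. The 785 include values of genes never called, such as RPS14 and RPLP1. The other 2 were counted as turned in sign, both for RPS27L with probe sets without a suffix. Turns of sign in values never called are not given. In 17 alternative limma fits, the calls of RPL3 (NR4A1 WT against NR4A1 CEAA) and RPL7L1 (NR4A1 CEAA against GFP) were each lost in 12. Those of RPL22L1, RPL7L1 and RPS27L in NR4A1 WT against GFP were lost in 0. A signal near the top of the scale or near background limits what 8 arrays can show.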
